A study of Homo sapiens with 6 samples.

Results

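Histone genes were followed in hTERT RPE-1 cells, a line of human retinal pigment epithelial cells immortalised with telomerase, with and without a short exposure to camptothecin. Camptothecin is an inhibitor of topoisomerase 1 that traps the enzyme on DNA. Both groups were the same cell line and carried the same hTERT gene, so they stand for 1 line and not for pigment epithelium at large. The 3 control libraries came from cells given no drug, and the 3 pre-dose libraries from cells given 25 nM camptothecin for 1 h and harvested 24 h after the drug was taken away. RNA was selected on oligo-dT beads, which hold poly-A tails. The histone genes were the protein-coding rows whose symbol begins as a histone H1, H2A, H2B, H3, H4 or macroH2A gene does, and 21 of the 13696 genes in the table met this rule. The names fell into 12 genes of the histone clusters and 9 variant histone genes.

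Histones are the proteins around which DNA is wound: H2A, H2B, H3 and H4 form the core of the nucleosome, and H1 binds the linker between cores. The clustered genes are transcribed in S phase, and most of their mRNAs end in a stem-loop instead of a poly-A tail, so that oligo-dT beads recover them poorly. The genes of variant histones lie elsewhere, are read through the cell cycle, and give mRNAs with poly-A tails. H2AX is a known exception that can be made in either form.

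The stem-loop, which is bound by the protein SLBP, is shown because it divides the members. It was searched for past the stop codon in the coding transcripts of GENCODE release 29 as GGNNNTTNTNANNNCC, on the transcript's own strand, with the first and last 6 bases able to pair (G with T allowed). Of the 12 clustered genes, 9 had it, and of the 9 variants, H2AX did. The 10 genes held 7 forms of it, and 1 form was shared by H2AC6, H2AC18, H2BC15 and H2BC21. The 16 bases of the stem-loop are in capitals below, with 5 bases on each side in DNA letters, 5′ to 3′.
H2AC6: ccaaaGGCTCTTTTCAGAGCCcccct
H2AC11: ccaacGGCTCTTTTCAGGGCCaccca
H2BC4: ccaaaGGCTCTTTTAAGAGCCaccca
H3C6: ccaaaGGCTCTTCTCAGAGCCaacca
H4C8: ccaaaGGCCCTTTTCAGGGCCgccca
H4C14: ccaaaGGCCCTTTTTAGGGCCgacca
H2AX: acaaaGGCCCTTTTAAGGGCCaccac
The same pattern occurred anywhere in a coding transcript of 118 of 19684 protein-coding genes (0.599%). It lay 30 to 67 bases past the stop codon in the 10 members.

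Each of the 9 clustered genes with the stem-loop also had an annotated coding transcript that ran more than 30 bases past it. The shortest such run was 35 bases, in H2AC18, and the longest was 1862 bases, in H3C6. This did not set the members apart when the first match anywhere in a full coding transcript was taken, before the stop codon included. By that looser search, 9 of 9 clustered members and 21 of 23 cluster genes outside the members had such a transcript. A poly-A signal, AATAAA or ATTAAA on the transcript's strand, stood in the last 50 bases of the longest coding transcript in 8 of the 12 clustered and 7 of the 9 variant genes. The other 3 clustered genes had models that stop early. H1-2 and H2BC12 had 0 annotated bases past the stop codon, and H4C3 had 51, so the stem-loop could not be looked for in full. GENCODE lists 71 protein-coding genes of the clusters, of which 13 had a row: the 12 members and H2AW, whose symbol the rule does not take. The rest were not analysed here.

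Depth, as rebuilt from the table, ran from 26336941 to 31780391 reads in a library, and levels are given as CPM, which scales a gene's count to the depth of its library. Both replicate 1 libraries were unlike the remaining 4: voom's quality weights gave them 0.23 and 0.199, against 1.26 to 2.86. Replicate numbers were taken to pair the libraries, which the labels do not state and the data bear out for replicate 1 alone. Pair values are given for the members the results turn on. Of the pigment epithelium markers, BEST1, MITF, OTX2 and RDH5 were measured and 7 of 11 had no row, among them RPE65. The 4 summed to 76.7 to 80.6 CPM in untreated and 79.6 to 88.1 CPM in pre-dose libraries. RDH5 alone of the 4 had no overlap of the groups, with 11.3 to 11.5 and then 12.7 to 14.6 CPM. It did not pass in the authors' deposited table (0.21, adjusted p = 0.0886). KRT8, a keratin of simple epithelia, stood at 875 to 979 CPM in untreated and 869 to 919.7 CPM in pre-dose libraries. KRT18, its partner, had 431 to 461 and then 413 to 428 CPM, with no overlap (-0.14, adjusted p = 0.042 in the authors' deposited table). Of the same list, KRT7 had only 17.3 to 19.6 and then 15.7 to 19.5 CPM, and KRT19, CDH1 and EPCAM had no row. The 2 measured blood markers summed to 75.4 to 84.4 CPM in untreated and 86.7 to 92.0 CPM in pre-dose libraries, but went opposite ways, each with no overlap of the groups. CD68 had 58.2 to 65.4 and then 70.7 to 75.9 CPM (0.27, adjusted p = 0.0369 in the authors' deposited table). HBB had 17.2 to 19 and then 13.7 to 16.1 CPM (-0.19, adjusted p = 0.136 in the authors' deposited table). PTPRC, CD3E and LYZ had no row. The 3 measured fibroblast markers, COL1A1, PDGFRA and PDGFRB, summed to 294, 584 and 607 CPM in untreated and 262, 502 and 428 CPM in pre-dose replicates 1 to 3. COL1A1 was lower in each pair, by -0.20, -0.35 and -0.73, as 16.3% of all genes tested were, but the groups overlapped. Over all libraries its difference in limma was -0.42 and did not pass (unadjusted p = 0.364). Its adjusted p was 0.24 in limma with the replicate number as a block, and 0.0865 in the authors' deposited table. Only within replicates 2 and 3 alone did COL1A1 pass in limma (adjusted p = 0.00259). The 2 measured neuronal markers, MAP2 and SNAP25, summed to 17.1 to 24.7 and 19.9 to 30 CPM. Both were higher in each pair, as 15.6% of all genes tested were, but their groups overlapped. MAP2 passed in limma within replicates 2 and 3 alone (0.29, adjusted p = 0.037), where 6.36% of all genes did. It did not pass in the authors' deposited table (adjusted p = 0.155). The part of these markers in the histone values was not tested.

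Variant histones made up nearly all histone signal in these poly-A libraries. Summed over the 9 variants, CPM was 1617, 1348 and 1348 in untreated replicates 1 to 3 (1438 ± 155, SD, n = 3). It was 1641, 1224 and 1308 after the pre-dose (1391 ± 220.3, SD, n = 3). The 12 clustered genes summed to 36.1 ± 2.83 and 37.3 ± 0.259 CPM (SD, n = 3 each), which was 2.53% of the signal of all members. Per kilobase of the longest coding transcript, the median level was 62.6 CPM for a variant and 1.73 CPM for a clustered gene. The classes overlapped on this scale: H2BC12 had 32.1 CPM per kilobase, over a model of the coding part alone, and the variant MACROH2A2 had 5.71. The clustered genes rested on few reads, with estimated counts of 15 to 427 in a library, against 297 to 10943 for the variants.

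**Figure D1:**
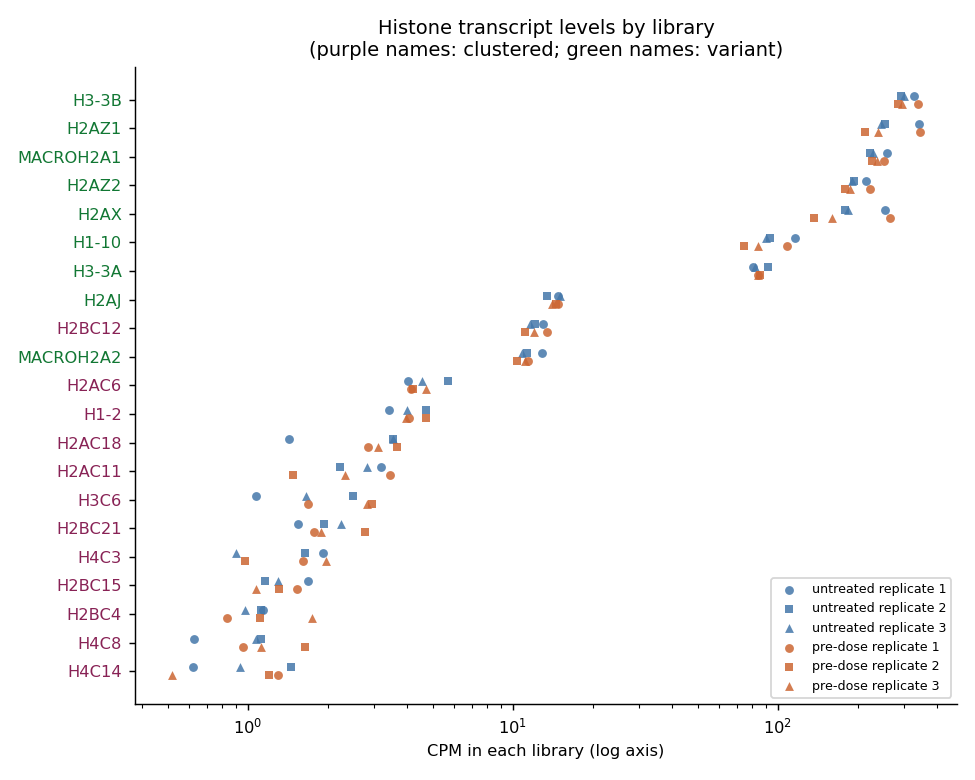
Level of each of the 21 histone genes in each of the 6 libraries, in CPM on a log axis, with 1 point for each library, colour for the group and shape for the replicate number. Variants (green names) reach 305 CPM in the mean of H3-3B, and of the clustered genes (purple names) H2BC12 alone has a mean above 10 CPM. The axis is not scaled by transcript length.

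No histone gene passed the test between pre-dose and untreated cells. In limma-trend 0 of 21 members passed at an adjusted p of 0.05 and 0 had an unadjusted p under 0.05. Over all 13616 genes tested, 0 passed (0.00%) and 280 (2.06%) had an unadjusted p under 0.05. Voom on rebuilt counts also called 0 members and 0 of all genes, with 0 members and 278 of all genes at an unadjusted p under 0.05. Blocking on the replicate number called 0 members and 0 of all genes (0.00%), with 3 members and 1443 of all genes (10.6%) at an unadjusted p under 0.05. Voom with quality weights for the libraries called 0 members and 108 of all genes (0.793%), with 2 members and 2757 of all genes (20.2%) at an unadjusted p under 0.05. The authors' deposited table called 415 of the genes tested (3.05%) and 0 of the 21 members, 3 of which had an unadjusted p under 0.05, as did 3170 of all genes (23.3%). The groups overlapped for each of the 21 members, while they did not for 892 of all genes (6.55%). The median difference, pre-dose minus untreated on the log2(CPM + 1) scale, was 0.04 over the clustered genes and -0.03 over the variants, beside -0.00 over all genes tested. In the 3 pairs the clustered median was 0.11, -0.00 and 0.01, and the variant median was 0.02, -0.10 and -0.03.

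**Figure D2:**
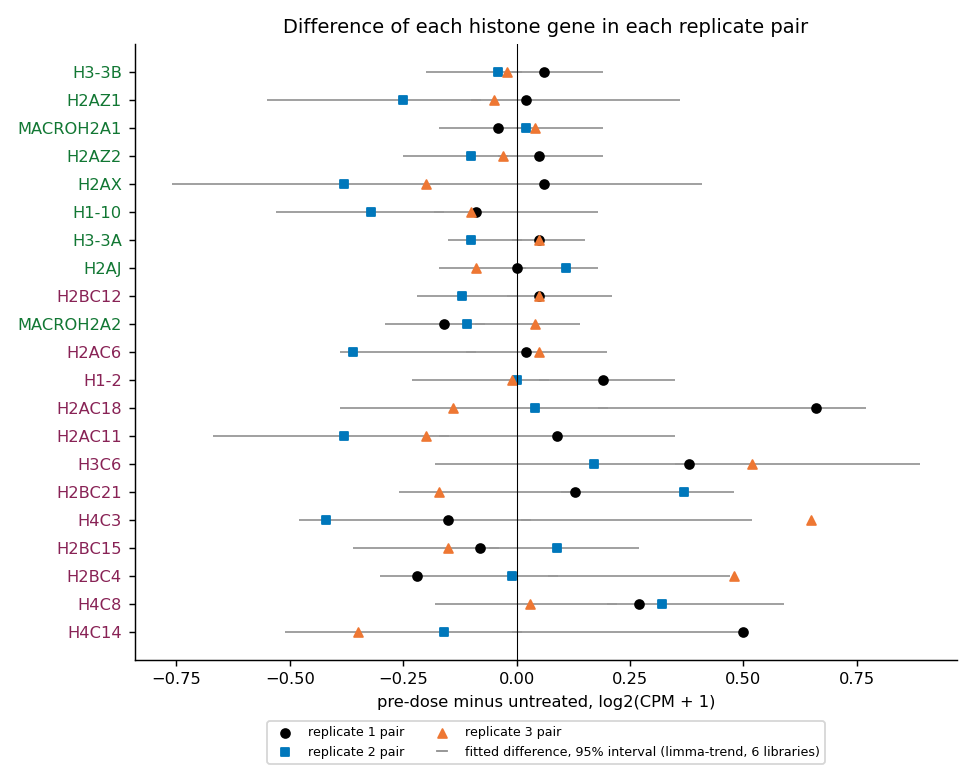
Difference of each histone gene, pre-dose minus untreated on the log2(CPM + 1) scale, in each replicate pair (points) with the fitted difference and its 95% interval from limma-trend over the 6 libraries (grey). Each interval includes 0, and H2AX, H2AZ1 and H1-10 show their lowest value in the replicate 2 pair.

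H2AX, the variant that is phosphorylated around DNA breaks, had the largest change among the variants in replicates 2 and 3. Its level in untreated replicates 1, 2 and 3 was 254, 179 and 184 CPM, and in the pre-dose replicates 265, 137 and 159.6 CPM. Both replicate 1 libraries lay above the other 4, and within replicates 2 and 3 each pre-dose library lay below both untreated ones. The pair differences were 0.06, -0.38 and -0.20 on the log2 scale. Over the 6 libraries the difference in limma was -0.18, with a 95% interval of -0.76 to 0.41 and an adjusted p of 1.00. With the replicate block it was -0.18 with an interval of -0.34 to -0.02 (adjusted p = 0.442). Within replicates 2 and 3, where limma called 866 of all genes (6.36%), H2AX fell by 0.29, with an interval of -0.42 to -0.17 (adjusted p = 0.014). With untreated replicate 1, 2 or 3 left out the difference was -0.01, -0.27 or -0.25. With pre-dose replicate 1, 2 or 3 left out it was -0.45, 0.02 or -0.09. Its size, and in 1 of these fits its sign, thus depended on the library left out. These fits held no block, so the higher replicate 1 libraries also weigh on their values. The authors' deposited table gave H2AX -0.22 with an adjusted p of 0.225.

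H1-10, a linker histone made outside the clusters, had 116, 93.1 and 90.6 CPM in the untreated replicates 1 to 3. The pre-dose replicates had 108, 74.3 and 84.3 CPM. It was lower after the pre-dose in each of the 3 pairs, by -0.09, -0.32 and -0.10. No other variant and 0 clustered genes were lower in all pairs, which 2216 of all genes tested (16.3%) were. The difference over the 6 libraries was -0.17, with an interval of -0.53 to 0.18 and an adjusted p of 1.00 in limma. With the block the interval was -0.29 to -0.06 and the adjusted p 0.353, the smallest of the members in that fit. Within replicates 2 and 3 H1-10 fell by 0.21 in limma, with an interval of -0.33 to -0.09 (adjusted p = 0.0448). H2AX and H1-10 were the 2 members called there, and 3 members and 2856 of all genes (21.0%) had an unadjusted p under 0.05. The differences of the other members there ran from -0.29 for H2AC11 to 0.35 for H3C6, and their smallest adjusted p was 0.089.

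H2AZ1 and H2AZ2 encode both forms of H2A.Z, a variant placed near transcription start sites. H2AZ1 had 339.5, 254 and 246 CPM in untreated and 344, 214 and 238 CPM in pre-dose libraries. Its pattern was like that of H2AX, with both replicate 1 libraries on top and the lowest value in pre-dose replicate 2. The difference was -0.09 over the 6 libraries (interval -0.55 to 0.36). In replicates 2 and 3 it was -0.15, with an interval of -0.25 to -0.05, and did not pass in limma after adjustment (adjusted p = 0.089). H2AZ2 had 215, 193 and 191 CPM in untreated and 223, 179.6 and 187 CPM in pre-dose libraries, a difference of -0.03 (interval -0.25 to 0.19). Per kilobase of the longest transcript H2AZ1 was the highest member at 278 CPM and H2AZ2 stood at 52.1, but on the shortest coding transcript H2AZ2 would stand at 451 and H3-3B at 554, so the order depends on the transcript used.

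H3-3A and H3-3B encode the same protein, H3.3, the H3 that is laid down outside replication. H3-3B had 325, 290.3 and 299.6 CPM in untreated and 339, 283 and 294 CPM in pre-dose libraries. H3-3A had 80.7, 91.6 and 81.7 CPM and then 83.8, 85.5 and 84.4 CPM. The groups overlapped closely for both. The difference of H3-3A was 0.00 with an interval of -0.15 to 0.15, and that of H3-3B was -0.00 with an interval of -0.20 to 0.19. The interval of H3-3A was the narrowest of the members. Of the 100-base stretches of the longest H3-3A transcript, 10.4% also occurred in other genes, among them the pseudogenes H3F3AP4 and H3F3AP6, so its count may include or lose reads to them.

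MACROH2A1 and MACROH2A2 encode macroH2A, an H2A with a large extra domain that is found in silent chromatin. MACROH2A1 had 259, 222 and 229 CPM in untreated and 252, 226 and 236 CPM in pre-dose libraries. MACROH2A2 had 12.9, 11.3 and 10.8 CPM and then 11.4, 10.4 and 11.1 CPM. Their differences were 0.01 (interval -0.17 to 0.19) and -0.08 (interval -0.29 to 0.14). H2AJ, an H2A variant that has been tied to senescent cells, had 14.8, 13.5 and 15.0 CPM in untreated and 14.8, 14.6 and 14.0 CPM in pre-dose libraries. The H2AJ difference was 0.01 with an interval of -0.17 to 0.18, and its 6 values lay within a narrow band.

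**Figure D3:**
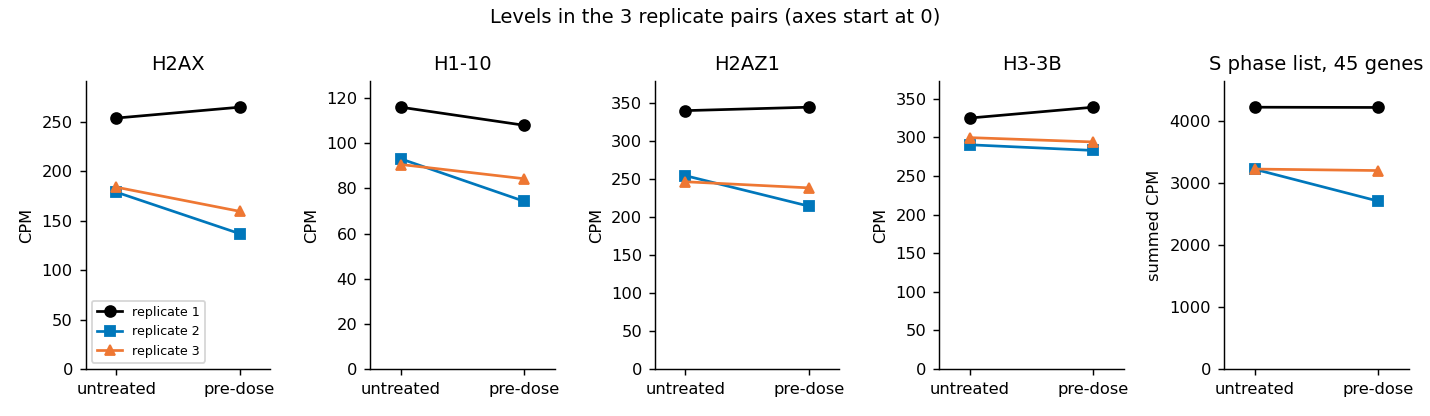
Levels in CPM of H2AX, H1-10, H2AZ1 and H3-3B, and the summed CPM of a list of 45 S phase and DNA replication genes, in untreated and pre-dose cells, with 1 line for each replicate pair and axes from 0. The replicate 1 pair lies above the others in each panel, and the replicate 2 line has the steepest drop for H2AX, H1-10, H2AZ1 and the list.

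Among the clustered genes, H2BC12 gave the highest level per kilobase. It encodes an H2B and lies on chromosome 6 at 27146418 to 27146798 (GRCh38). Untreated replicates 1 to 3 had 13.0, 12.1 and 11.6 CPM and pre-dose replicates 13.4, 11.1 and 12.0 CPM, a difference of -0.01 (interval -0.22 to 0.21). In its model 28.4% of the 100-base stretches were shared with a gene named H2BFS. The other H2B genes stood at 0.324 to 1.75 CPM per kilobase of the longest transcript, where H2BC15 would move from 0.324 to 3.11 on its shortest. H2BC21 had 1.54, 1.93 and 2.25 CPM and then 1.78, 2.77 and 1.89 CPM, with a difference of 0.11 (interval -0.26 to 0.48). H2BC15 had 1.07 to 1.68 CPM in the 6 libraries. H2BC4 had 1.14, 1.12 and 0.972 CPM in untreated and 0.834, 1.11 and 1.75 CPM in pre-dose libraries, so that its pairs differed by -0.22, -0.01 and 0.48.

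Promoters are shown because 3 of the 4 H2B members, H2BC4, H2BC12 and H2BC21, held an octamer, ATTTGCAT, that is bound by OCT factors. The 100 bases before the RefSeq start (GRCh38.p14) are given 5′ to 3′ on the gene's strand, all 3 on the minus strand, with ATTTGCAT, CCAAT and TATAAA in capitals on either strand. H3-3B is shown as the variant that also had the octamer.
H2BC12, chr6:27146859-27146958: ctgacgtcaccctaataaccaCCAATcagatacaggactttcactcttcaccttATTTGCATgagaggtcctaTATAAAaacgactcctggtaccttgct
H2BC21, chr1:149886683-149886782: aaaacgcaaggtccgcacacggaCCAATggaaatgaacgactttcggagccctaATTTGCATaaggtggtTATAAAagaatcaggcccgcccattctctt
H3-3B, chr17:75779780-75779879: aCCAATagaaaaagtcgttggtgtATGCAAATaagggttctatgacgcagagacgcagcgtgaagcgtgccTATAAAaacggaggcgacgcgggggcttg
In the 250 bases before the start, the octamer was found on either strand in 6 of the 20 members with a RefSeq promoter, against 573 of 35116 promoters (1.63%). They were H2AC6, H2AC11, H2BC4, H2BC12, H2BC21 and H3-3B. H2AC6 and H2BC4 lie head to head, and the stretches searched for them were nearly the same bases. A motif there counts for both genes, in this and the next counts. CCAAT was found in 16 members (32.0% of all promoters) and TATAAA in 11 (10.7%), where a member with several starts was counted once. Genes with the octamer stood both high and low: H2BC12 had 32.1 and H2BC21 0.924 CPM per kilobase. Part of this gap comes from length, as the H2BC12 model holds 381 bases and that of H2BC21 2194. Without scaling by length their means were 12.2 and 2.03 CPM. The interval of the difference included 0 for both genes.

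The clustered H2A genes had their lowest value in untreated replicate 1 for H2AC6 and H2AC18, and in pre-dose replicate 2 for H2AC11. H2AC6, on chromosome 6 at 26124145 to 26139116, had 4.02, 5.68 and 4.53 CPM in untreated and 4.11, 4.19 and 4.71 CPM in pre-dose libraries, a difference of -0.10 (interval -0.39 to 0.20). H2AC11 had 3.18, 2.22 and 2.82 CPM and then 3.45, 1.48 and 2.32 CPM, with pair differences of 0.09, -0.38 and -0.20. These 3 values resembled those of H2AX, but on estimated counts of 44 to 109 reads in a library the interval ran from -0.67 to 0.35. H2AC18 had 1.43 CPM in untreated replicate 1 and 2.84 to 3.66 CPM in the other 5 libraries, and so differed by 0.66 in the replicate 1 pair alone. Each 100-base stretch of H2AC18 also occurs in HIST2H2AA4 or HIST2H2AC, so its reads cannot be assigned to 1 gene.

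H3C6 had the largest fitted difference of the members, on few reads. It is an H3 gene on chromosome 6 at 26224199 to 26227473. The untreated replicates had 1.07, 2.49 and 1.66 CPM and the pre-dose replicates 1.68, 2.93 and 2.81 CPM, or 31, 65 and 50 and then 53, 88 and 84 estimated reads. H3C6 was higher in each pair, by 0.38, 0.17 and 0.52, yet the groups overlapped because untreated replicate 2 lay above pre-dose replicate 1. The difference was 0.36 in limma, with an interval of -0.18 to 0.89, an unadjusted p of 0.16 and an adjusted p of 1.00. With the replicate block the interval was 0.08 to 0.63 (adjusted p = 0.396). Within replicates 2 and 3 it was 0.35, with an interval of -0.00 to 0.69 (adjusted p = 0.239 in limma). H4C8 was the other member higher in each pair, by 0.27, 0.32 and 0.03, and 2123 of all genes tested (15.6%) were higher in each. The authors' deposited table gave H3C6 0.58 with an adjusted p of 0.121.

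The 3 H4 genes and the linker histone H1-2 completed the clustered members. H4C3 had 1.92, 1.65 and 0.906 CPM in untreated and 1.62, 0.978 and 1.98 CPM in pre-dose libraries, and its pairs ran from -0.42 to 0.65. H4C8 had 0.628, 1.12 and 1.07 CPM and then 0.960, 1.64 and 1.12 CPM. H4C14 had 0.62, 1.46 and 0.936 CPM and then 1.3, 1.2 and 0.517 CPM, with the sign of its pairs split at 0.50, -0.16 and -0.35. Each 100-base stretch of H4C14 also occurs in HIST2H4B, so its reads cannot be assigned to 1 gene. H1-2 had 3.41, 4.69 and 3.97 CPM and then 4.04, 4.69 and 3.95 CPM, a difference of 0.06 (interval -0.23 to 0.35). For H2BC4, H4C3 and H4C14 the authors' deposited table gave 0.60, 0.59 and -0.76 with adjusted p values of 0.146, 0.286 and 0.205, against 0.08, 0.02 and -0.00 in limma here. Voom with library quality weights gave 0.51, 0.39 and -0.69 for them, with adjusted p values of 0.25, 0.545 and 0.318.

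Clustered genes varied more between pairs than variants did. A pair difference beyond 0.3 on the log2 scale in either direction was seen in 12 of 36 values for the clustered genes and 2 of 27 for the variants, H2AX and H1-10 in the replicate 2 pair. The median width of the 95% interval was 0.77 for a clustered gene and 0.43 for a variant. No test was made of this contrast, as level and class go together in these members.

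The replicate 1 libraries were offset in opposite directions for most members of each class. The offset is the mean of both replicate 1 libraries minus the mean of the other 4, on the log2(CPM + 1) scale. It was above 0 for 8 of 9 variants and for 4 of 12 clustered genes, beside 48.0% of all genes tested. Its median was 0.19 over the variants and -0.17 over the clustered genes. H2AX (0.66), H2AZ1 (0.53) and H1-10 (0.39) stood highest among the variants, H3-3A (-0.06) was the variant below 0, and H2AC18 (-0.55) and H3C6 (-0.54) stood lowest among the clustered genes. H2AC11 (0.44), H4C3 and H2BC15 (0.24 each) and H2BC12 (0.16) were the clustered genes above 0. Genes of S phase and DNA replication, a list of 45, were all offset upward, with a median of 0.39. Their summed level was 4215 and 4211 CPM in the replicate 1 libraries, 3216 and 3219 CPM in untreated replicates 2 and 3, and 2704 and 3195 CPM in pre-dose replicates 2 and 3. In the replicate 2 pair 0 of the 45 were higher, and the list's median differences were -0.01, -0.28 and -0.03 in the 3 pairs. The part of these replication genes in the values of H2AX, H2AZ1 and H1-10 was not tested. In bulk RNA, fewer cells in S phase and less histone RNA in each cell cannot be told apart.

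**Figure D4:**
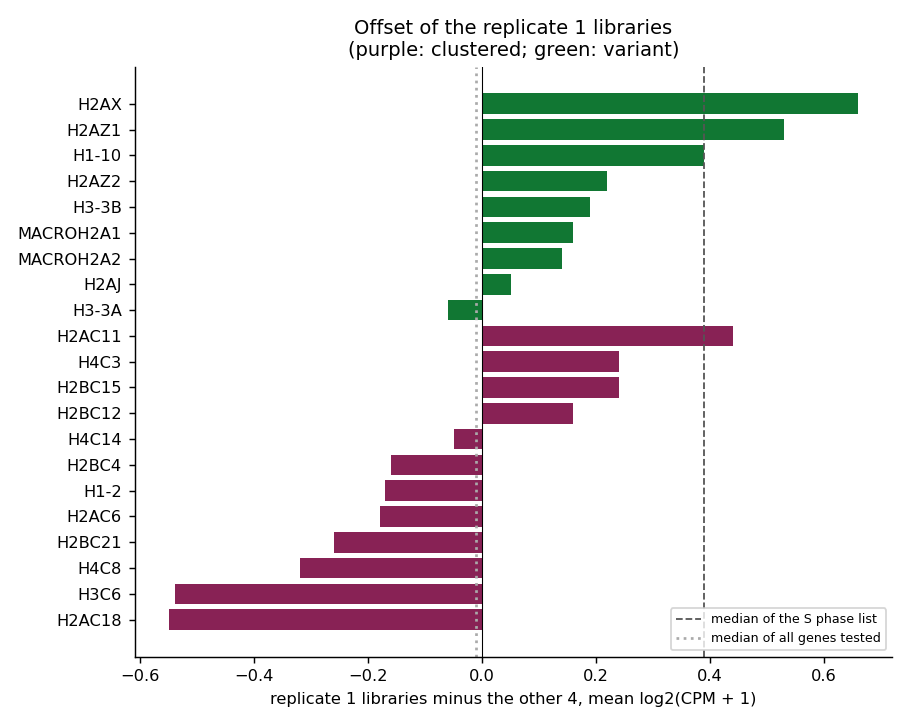
Offset of the replicate 1 libraries from the other 4 for each histone gene, in mean log2(CPM + 1), with bars coloured by class, a dashed line at the median of the S phase list (0.39) and a dotted line at the median of all genes tested (-0.01). Of the variants 8 of 9 lie above 0, and of the clustered genes 8 of 12 lie below it.

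Genes that make and handle histones were taken from lists of 28 genes for histone mRNA transcription and processing and 36 for histone chaperones and exchange. In limma 0 of these 64 passed and 0 had an unadjusted p under 0.05, beside 0.00% and 2.06% of all genes, and voom on rebuilt counts called 0. With the replicate block 0 passed and 10 had an unadjusted p under 0.05, beside 10.6% of all genes. The median difference was -0.04 for each list. SLBP, which binds the stem-loop, had 55.6, 46.0 and 45.5 CPM in untreated and 52.6, 40.2 and 43.4 CPM in pre-dose libraries. SLBP was lower in each pair, by -0.08, -0.19 and -0.07, and its 6-library difference was -0.11 (interval -0.39 to 0.17). Of the 64 genes, 18 (28.1%) were lower in each pair, beside 16.3% of all genes tested. NPAT, the activator of clustered histone genes, differed by -0.05 (interval -0.31 to 0.21) and its partner CASP8AP2 by -0.07 (interval -0.26 to 0.12).

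Among the chaperones, HJURP and ANP32E had an adjusted p under 0.05 in the authors' deposited table, both lower, where 196 of the genes tested (1.44%) were called lower. HJURP loads the centromeric H3 variant CENP-A. HJURP had 65.5, 71.0 and 70.6 CPM in untreated and 78.5, 50.1 and 56.3 CPM in pre-dose libraries, and its pair differences were 0.26, -0.50 and -0.32. ANP32E, which removes H2A.Z from chromatin, had 59.7, 66.5 and 62.9 CPM and then 62.9, 51.0 and 53.5 CPM. In limma their differences were -0.19 (interval -0.55 to 0.17) and -0.18 (interval -0.39 to 0.04). Within replicates 2 and 3 limma called 5 of the 64, each lower, while 472 of all genes (3.47%) were called lower. They were HJURP (-0.41), ANP32E (-0.30), MMS22L (-0.30), HAT1 (-0.27) and DEK (-0.24), the last 3 named after their values were seen. HAT1 acetylates new H4, MMS22L acts at stalled forks, and DEK binds chromatin.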

How the data were processed

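RNA-seq values of 6 libraries, 3 untreated and 3 pre-dose, were taken from 1 table deposited by the authors. It held 13773 rows, of which 77 repeated an identifier and were dropped. The authors deposited expression as log2 CPM, with their own log2 fold changes, p-values, adjusted p-values and a moderated statistic (a score), per the file headers. The sign of their fold changes was reversed here, so that a positive value is higher after the pre-dose. Tools named in the submitters' processing notes are DRAGEN, bcl2fastq, limma and edgeR, with hg38 as the build. For the counter, strand setting, annotation and gene filter, nothing is stated in the sources used here. The lowest value of each column was read as a count of 0 with a prior of a fraction of a read, which gave the library totals and the estimated, not whole, reads. At these totals 3 counts correspond to 0.0944 to 0.114 CPM, for counting error only.

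The test was limma-trend (limma 3.58.1, R 4.3.3) of log2(CPM + 1), where 1 CPM is the pseudocount, over genes whose mean reached 1 CPM, without a block and with Benjamini-Hochberg adjustment over 13616 genes. This scale understates changes of low genes. All 21 members passed the minimum. A count test was kept for raw counts, which the table did not hold. Fits were tested on simulated data that held no offset between replicates, so that test does not show how well the main fit finds changes here. Alternatives were a replicate block, other pseudocounts and filters, median centring, voom without and with library quality weights, replicates 2 and 3 alone, and each library left out. Whether replicates were separate cultures is not stated in the labels. The p-values therefore cover the spread among these libraries, which may be technical.

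Deviations from the group means correlated at 0.66, 0.45 and 0.18 for replicates 1, 2 and 3 across genes. The replicate number was treated as a pairing, which the labels do not state and which these values bear out for replicate 1 alone. Untreated replicate 3 with pre-dose replicate 2 reached 0.51, and untreated replicate 2 with pre-dose replicate 3 reached 0.28. How the libraries of replicates 2 and 3 pair is therefore not settled, and pair values and the block fit rest on the numbering. Members and lists were chosen with earlier results of these data known. All variants and the 12 highest clustered genes, which were all of them, were to be named, with SLBP, NPAT, CASP8AP2 and the machinery genes past an adjusted p of 0.05 in limma or in the authors' deposited table. Positions, lengths and transcripts came from GENCODE 29 (GRCh38) and promoters from RefSeq (GRCh38.p14), where 20 of 21 members matched. Figures were drawn with matplotlib 3.10.9.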

Additional observations from a re-analysis of the deposited data

How the results depend on the processing

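The count of histone members past the threshold was 0 and stayed at 0 in 14 of 15 alternative fits. It was 2 in replicates 2 and 3 alone, where the machinery lists had 5 and all genes 866. Voom with library quality weights called 108 of all genes and 0 members. The main fit and each other alternative, the replicate block and the fits with 1 library left out among them, called 0 of all genes. Their counts of 0 members and 0 of the machinery lists were therefore fixed and say nothing particular to histones. The medians of both classes moved by less than the spread between libraries under each alternative, and with H2AX and H2AJ counted as clustered they were 0.01 and -0.03. With a mean of at least 5 CPM, 10 of the 21 members were tested. Of 304 member values recomputed, 299 moved by less than the spread between libraries. Much of this was fixed in advance, as the block and the filters leave a member's own difference unchanged. The spread, here and for the class medians, also holds the offset of replicate 1, so this count does not measure stability. Of the rest, 3 moved by more (H2BC4, H4C3 and H4C14 in voom with library quality weights). The other 2, H2AX and H1-10, passed the threshold in replicates 2 and 3. Only H1-10, H3C6, H4C8 and MACROH2A2 kept their sign in each alternative that tested them. Counts of 15 to 110 reads in a library limit what can be seen for the 9 lowest clustered genes, and reads from near-identical copies limit H2AC18 and H4C14.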

Other observations

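Other histone rows of the table lay outside the rule. CENPA, the H3 variant of centromeres, had 12.8, 14.9 and 14.2 CPM in untreated and 15.6, 9.96 and 9.67 CPM in pre-dose libraries. The groups overlapped through the replicate 1 pair, and the pair differences were 0.26, -0.53 and -0.51, with the same signs as those of its chaperone HJURP. The 6-library difference of CENPA in limma was -0.26, with an interval of -0.67 to 0.15 and an adjusted p of 1.00. Within replicates 2 and 3 it fell by 0.52 in limma (adjusted p = 0.004), and the authors' deposited table gave -0.53 with an adjusted p of 0.0295. CENPA was singled out after its values were seen.

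H2AW, an H2A gene, had 4.09 to 5.46 CPM and differed by -0.02 (interval -0.31 to 0.28). The pseudogenes H2BC19P and H2BC20P, whose names place them with the H2B clusters, had 3.36 to 3.97 and 3.06 to 6.03 CPM. H2BC20P had its lowest value in untreated replicate 1, as H2AC18 did. The processed pseudogene H3P6 had 76.8 to 86.1 CPM and differed by -0.03 (interval -0.17 to 0.12). The antisense transcript H1-10-AS1 had 1.36 to 1.83 CPM. As the strand setting of the counts is not known, its reads and those of H1-10 cannot be told apart where the genes overlap.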
